A study of Solanum lycopersicum with 12 samples.

Results

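Tomato (Solanum lycopersicum) seedlings that had been given the cell-free culture filtrate of Bacillus amyloliquefaciens MBI600 (MBI600 CFCF) were compared with control seedlings 6 h after treatment. The comparison rests on 4 of the 12 arrays of the series, chosen by their labels, with 2 arrays of MBI600 CFCF at 6 h and 2 of the control at 6 h. The seedlings were whole, 15 days old, and were kept in liquid MS medium. Each array held RNA from a pool of 2 seedlings. The filtrate made up 20% of the volume. Other arrays held seedlings given 1 µM flg22, the flagellin peptide that plants perceive, as a positive control. The control is called untreated or water in the sample labels, whereas the methods give LB with MS medium at the same volume as the filtrate. By the methods the control therefore carried LB but no bacterial products, and no LB is described for flg22. The treated material was the filtrate and not living cells, so colonization of the root is no part of this comparison.

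Plants detect bacteria through receptor kinases at the cell surface that bind conserved molecules such as flagellin, and through them start kinase cascades, oxidant production and changes in transcription. Salicylate is the hormone best known for inducing pathogenesis-related (PR) proteins, among them PR1, chitinases and subtilisin-like proteases. Jasmonate, made from fatty acids by lipoxygenases, is the hormone of the wound response in tomato and induces proteinase inhibitors, leucine aminopeptidase, threonine deaminase and polyphenol oxidase. Ethylene, made from ACC by ACC oxidases, acts together with both. Root-associated bacilli are studied for induced systemic resistance, which is commonly tied to jasmonate and ethylene.

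The 4 arrays lay on 2 slides. Control replicate 1 and filtrate replicate 1 shared slide 2, and control replicate 2 and filtrate replicate 2 shared slide 3, so each slide gave its own difference between filtrate and control. Between 71.2% and 78.6% of the probes were well above background on these arrays, and 0 spots were saturated. The shoot markers (16 genes, mostly of the small subunit of Rubisco and of chlorophyll-binding proteins) had a mean log2 signal of 15.06, 14.51, 15.05 and 14.90 on control replicates 1 and 2 and filtrate replicates 1 and 2. The root markers (7 genes, such as nitrate and ammonium transporters) had 8.45, 9.53, 8.44 and 8.92 in the same order. Control replicate 2 therefore had the lowest shoot level and the highest root level. Of the root markers, 1 was well above background on none of the 4 arrays, and whether the others were so on all 4 is not given. The part of control replicate 2 in the results on slide 3 was not tested. In whole seedlings, fewer cells of a type and less RNA per cell cannot be told apart.

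Most probes read alike with and without the filtrate. Of 43603 probes, 0% (0 probes) passed an adjusted p under 0.1 with a log2 difference of at least 2 in limma, and the smallest adjusted p was 0.859. At an unadjusted p under 0.05 in limma there were 1118 probes (2.56%), 584 of them higher (1.34%) and 534 lower (1.22%), and 170 of the 1118 also differed by at least 1. The 2.56% is below the share that a threshold of 0.05 would pass if no probe differed. The methods accept either threshold alone, and at the log2 difference alone 23 probes were higher (0.0527%) and 2 were lower (0.00459%), 25 in all (0.0573%). That count was 110 and 11 without filtrate replicates 1 and 2, and 95 and 48 without control replicates 1 and 2. With the replicate number, and so the slide, as a block and only these 4 arrays, 0 probes passed both thresholds and the smallest adjusted p was 0.811. With 2 arrays in each group, an exact permutation test (two-sided) cannot give a p below 0.333. The genes below are therefore described by their values on each array, and none of the differences from the control passed the adjusted threshold in this fit.

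The slides gave unequal spreads. The difference between filtrate and control had an SD over probes of 0.179 (log2) on slide 2 and 0.522 on slide 3, and both sets of differences correlated with Pearson's r = 0.289 over 43603 probes, which share arrays and are not replicates. On slide 2, 136 probes were higher by at least 1 (0.312%) and 17 were lower (0.039%). On slide 3 these were 1585 (3.64%) and 1460 (3.35%). The probes higher on both slides numbered 75, which was 55.1% of those of slide 2 and 4.73% of those of slide 3, and they stood for 57 sequence names and 18 genes. The probes lower on both numbered 6 (35.3% and 0.411%) and held 3 genes, namely EXPB2, 7k-LTP and LOC101253509. Probes past 1 in opposite directions numbered 3 and 6. Most differences past 1 were thus read on slide 3 alone, with 1510 probes higher and 1454 lower there and not on slide 2.

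**Figure D1:**
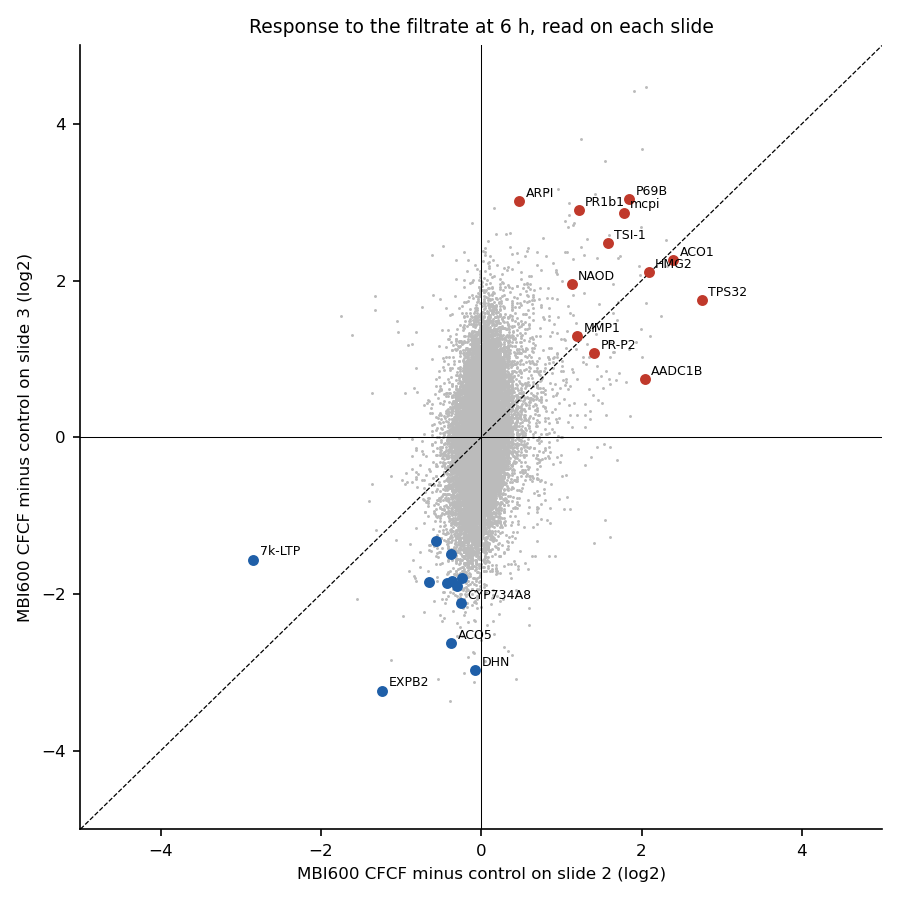
Each grey point is 1 of 43603 probes, with the log2 difference between MBI600 CFCF and control on slide 2 (x axis) and on slide 3 (y axis). Red points are the 12 named genes with the highest positive differences and blue points those with the lowest negative differences, and the dashed line marks equal differences. The cloud is taller than it is wide (SD 0.522 against 0.179), HMG2 and ACO1 lie near the dashed line, and most blue points lie close to 0 on slide 2.

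Genes of the isoprenoid pathway lay on both sides of the control. TPS32, which encodes a sesquiterpene synthase that makes viridiflorene, read 6.61 and 6.91 (log2) on the control arrays of slides 2 and 3 and 9.36 and 8.65 on the filtrate arrays. Both filtrate arrays lay clear of both control arrays, with a difference of 2.25 ± 0.25 (log2, standard error, n = 2 and 2), or 4.76-fold, and an adjusted p of 0.859 in limma. Each standard error given here is that of limma's fit of all 12 arrays and not the spread of these 4 alone. The difference of TPS32 was 2.75 on slide 2 and 1.75 on slide 3. HMG2, an HMG-CoA reductase of the mevalonate route that feeds sesquiterpenes and sterols, read 8.79 and 9.26 in the control and 10.88 and 11.36 after the filtrate. Its difference was 2.098 ± 0.304, with 2.092 on slide 2 and 2.104 on slide 3, and its other probe gave 0.81. GGPS1, a geranylgeranyl diphosphate synthase, read 6.496 and 6.469 against 7.406 and 7.497, a difference of 0.97 ± 0.18. The groups did not overlap for any of these 3 genes. The isopentenyl diphosphate isomerases IDI1 and IDI2 were also above the control on both arrays, by 0.54 ± 0.50 and 0.55 ± 0.25. The sesquiterpene synthase SSTLE1 was below it by 0.83 ± 0.35 (8.06 and 8.90 against 7.35 and 7.95), and the second reductase gene, HMGR, had a difference of -0.33. Of the 18 genes of the isoprenoid list, which was drawn up after these values had been seen, 7 lay above both control arrays and 4 below, with a median difference of 0.10. Over all 2232 genes matched, 12.7% lay above and 15.5% below, with a median of -0.0015. The other terpene synthases of the list, such as TPS24 (0.08), TPS7 (0.11), TPS12 (-0.13) and TPS17 (-0.14), lay close to the control.

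PR proteins made up several of the highest differences. P69B, a subtilisin-like protease, read 7.62 and 7.31 in the control and 9.46 and 10.34 after the filtrate. That was a difference of 2.44 ± 0.90 (5.43-fold), 1.85 on slide 2 and 3.03 on slide 3. On slide 3 the red channel, whose content no source used here gives, was higher by 0.87 as well. The other probe of P69B gave 1.46 ± 0.72, most of it on slide 3 (2.60, against 0.31 on slide 2). The related gene p69c read 6.44 and 7.28 against 8.29 and 7.55, with 1.85 on slide 2 and 0.27 on slide 3. PR1b1, a small secreted protein of the PR1 family, read 10.43 and 8.15 in the control and 11.65 and 11.04 after the filtrate. Both filtrate arrays lay above both control arrays, but the control arrays were 2.29 apart and the difference of 2.06 ± 0.84 ran from 1.22 on slide 2 to 2.90 on slide 3. Its 6 probes gave 0.95 to 2.06. PR-P2, a PR4-type protein, was more even, with 9.45 and 9.65 against 10.86 and 10.72 and a difference of 1.24 ± 0.35. TSI-1, a stress-induced protein of the PR10 type, read 11.78 and 11.09 against 13.36 and 13.56, a difference of 2.03 ± 0.57. The chitinases CHI3 and CHI9 and LOC543878, whose synonym is PR5, were above the control by 0.69, 0.66 and 0.68, nearly all of it on slide 3 (1.198, 1.236 and 1.318, against 0.17, 0.09 and 0.05 on slide 2).

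Of the salicylate and PR list (16 genes), 8 lay above both control arrays and 2 below. These were 50% and 12.5%, against 12.7% and 15.5% of all matched genes. The median difference was 0.33, with 0.13 on slide 2 and 0.33 on slide 3. At an unadjusted p under 0.05 in limma, 3 were higher (P69B, PR1b1 and PR-P2) and 1 was lower. Of all 2232 matched genes, 46 were higher and 50 lower at that threshold. The salicylate signalling genes EDS1 and NPR1 differed by less than the PR proteins named above. EDS1, a regulator upstream of salicylate, read 9.85 and 9.80 in the control and 10.12 and 10.20 after the filtrate, and NPR1, the coactivator through which salicylate acts, read 9.30 and 9.46 against 9.29 and 8.89. The first was thus higher by 0.33 ± 0.16 and the second lower by 0.29 ± 0.19. SAMT, the enzyme that turns salicylate into its volatile methyl ester, read 11.02 and 11.03 in the control and 10.59 and 9.17 after the filtrate, and its difference of -1.14 ± 0.40 came mostly from slide 3 (-1.86, against -0.43). The P69 and PR1 genes have close relatives, and whether their probes also read those was not tested.

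**Figure D2:**
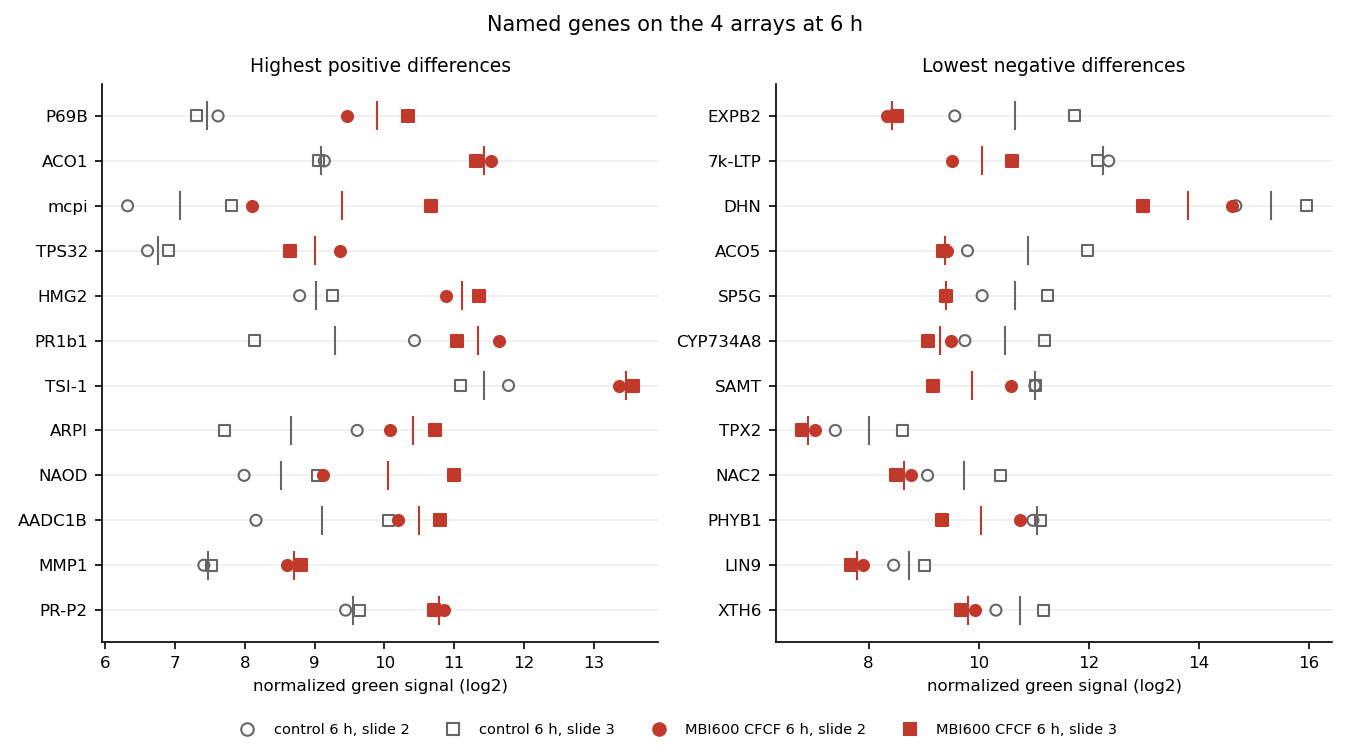
Normalized green signal (log2, x axis) of the 12 genes with the highest positive differences (left) and the 12 with the lowest negative differences (right) on the control arrays (open grey) and MBI600 CFCF arrays (filled red) of slide 2 (circles) and slide 3 (squares), with the mean of each group as a vertical bar. On the left ACO1, HMG2, TPS32, MMP1 and PR-P2 have tight groups, and on the right the control array of slide 3 stands far above the others for EXPB2 (11.75), ACO5 (11.98) and CYP734A8 (11.20).

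ACC oxidase genes lay on both sides of the control. ACO1, an ACC oxidase that catalyses the last step of ethylene synthesis, read 9.14 and 9.05 in the control and 11.54 and 11.32 after the filtrate. The difference of 2.33 ± 0.54 (5.03-fold) was 2.40 on slide 2 and 2.27 on slide 3, and its 3 probes gave 1.13 to 2.41. Other ACC oxidase genes were higher by less, with ACO6 at 0.78 ± 0.36, EFE at 0.60 ± 0.37 and ACO4 at 0.22 ± 0.13, all with both filtrate arrays above the control. ACO5 went the other way and read 9.80 and 11.98 in the control and 9.42 and 9.35 after the filtrate. Its difference of -1.502 ± 0.798 was -0.37 on slide 2 and -2.63 on slide 3, where the control array was the high value. Among the response factors, PTI5, an ERF that binds the promoters of PR genes, read 6.94 and 7.73 against 8.45 and 8.18 (0.98 ± 0.42), and ERF5 and PTI6 were higher by 0.68 and 0.38. The receptor ETR5 and the transcription factors ERF7 and EIL2 lay below the control by 0.46, 0.61 and 0.28. Over the 51 ethylene genes, 9 lay above both control arrays and 9 below, and the median difference was -0.05. Each share was 17.6%, against 12.7% above and 15.5% below of all matched genes.

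Wound-response proteins had the highest list median, and it rested on slide 3. mcpi, a metallocarboxypeptidase inhibitor, read 6.32 and 7.81 in the control and 8.10 and 10.68 after the filtrate, so that the groups were separate by 0.29 only. Its difference was 2.32 ± 0.86, with 1.78 on slide 2 and 2.87 on slide 3. TD2, the threonine deaminase that breaks down threonine in the gut of insects, read 7.42 and 9.74 against 9.16 and 12.04, and LAPA1, a leucine aminopeptidase, read 8.10 and 10.33 against 10.15 and 12.04. For both the control array of slide 3 lay above the filtrate array of slide 2, so the groups overlapped, whereas the filtrate array was the higher on each slide (TD2 by 1.73 and 2.31, LAPA1 by 2.05 and 1.71). These are the brightest probes. Of the 7 probes of TD2, which gave 1.06 to 2.33, 5 had both filtrate arrays above both control arrays, as had 2 of the 4 of LAPA1, which gave -0.10 to 1.88. The polyphenol oxidases LOC101259357 and LOC101259064 and LOC543954, whose synonym is PIIF, differed by -0.16, 0.03 and -0.12 on slide 2 and by 2.26, 1.85 and 2.74 on slide 3. Of these 3, LOC101259064 alone had both filtrate arrays (10.73 and 12.08) above both control arrays (10.697 and 10.234). cathDInh, an inhibitor of the cathepsin D type, was not well above background in the control and read 6.32 and 6.96 after the filtrate. Its difference was 0.79 ± 0.48, and its other probe gave 0.15. With the control set to the lowest level well above background it was 1.59-fold, a value that leaves the standard error out. Of the 11 genes of the list, 4 lay above both control arrays (36.4%, against 12.7% of all matched genes) and 0 below (against 15.5%). The median was 0.94 (0.18 on slide 2 and 1.71 on slide 3). CEVI57 was the member with the lowest difference, -0.52.

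The jasmonate genes upstream of these proteins did not share that position. loxD, a lipoxygenase of jasmonate synthesis, read 9.74 and 11.20 in the control and 10.08 and 9.58 after the filtrate, which was 0.34 on slide 2 and -1.62 on slide 3. MYC2, the transcription factor at the head of the jasmonate response, read 10.24 and 10.71 against 10.11 and 10.29 (-0.28 ± 0.15). Both sets overlapped. The repressor genes JAZ2 and SLJAZ3 lay above the control by 0.38 ± 0.16 and 0.33 ± 0.19, LOX1.1 by 0.49 ± 0.43, and opr2 and the receptor gene COI1 lay below it by 0.37 and 0.13. The median of the 15 genes was -0.02, with 3 above (20%, against 12.7% of all matched genes) and 4 below (26.7%, against 15.5%).

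The lists of perception and early signalling stayed near the median of all genes. Of 33 receptor, kinase and WRKY genes, 4 lay above both control arrays and 5 below, and the median difference was -0.02. These shares were 12.1% and 15.2%, against 12.7% and 15.5% of all matched genes. At an unadjusted p under 0.05 in limma there were 0, against 46 higher and 50 lower of all 2232. WRKY81 was the highest of the separate members at 0.63 ± 0.31 and the kinase genes MKK4 and PTI1 the lowest at -0.67 ± 0.50 and -0.63 ± 0.36, each of them with nearly all of the difference on slide 3 (1.13, -1.29 and -1.07). Of the phenylpropanoid list, 3 of 17 lay above (17.6%, against 12.7% of all matched genes) and 0 below (against 15.5%), with 0.19 as median. AADC1B, an aromatic amino acid decarboxylase that makes amines from phenylalanine and its relatives, led it with 8.16 and 10.05 against 10.20 and 10.80 (1.39 ± 0.58), and PAL3 (0.30 ± 0.32) and F3H (0.13 ± 0.48) were the others. The second probe of AADC1B gave 1.58 ± 0.33, with 1.93 on slide 2 and 1.22 on slide 3. This list was sensitive to the control arrays, since its median was -0.41 without control replicate 1 and 0.74 without control replicate 2.

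Of 22 redox and detoxification genes, 5 lay above both control arrays and 2 below, with a median of 0.11. These shares were 22.7% and 9.09%, against 12.7% and 15.5% of all matched genes. GST-T4, a glutathione transferase, read 10.75 and 11.21 against 11.68 and 12.23, so that it was higher by 0.94 on slide 2 and by 1.02 on slide 3. CEVI-1, a peroxidase, was higher by 1.14 ± 0.47 and CAT2, a catalase, by 0.52 ± 0.32. TPX2, another peroxidase, read 7.39 and 8.62 against 7.02 and 6.78 and was lower by 1.105 ± 0.355. Among the heat shock genes, HSP17-6 was higher by 0.97 ± 0.41 and Hsp90-1 lower by 0.74 ± 0.36. The list median was -0.02 (15 genes, 2 above and 2 below, 13.3% each). Of 9 reference genes, 1 lay above the control (11.1%, GAPDH, by 0.31 ± 0.12) and 0 below, and the median was 0.07. The shares of all matched genes were again 12.7% above and 15.5% below.

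Other genes among the highest 12 fall outside these groups. MMP1, a matrix metalloproteinase, read 7.41 and 7.52 in the control and 8.61 and 8.81 after the filtrate, a difference of 1.24 ± 0.36 with 1.1997 and 1.29 on the slides, and its other probe gave 1.01 with groups that overlapped. NAOD, an N-acetylornithine deacetylase, read 7.99 and 9.04 against 9.12 and 11.00, and the groups were only 0.08 apart and overlapped on its second probe (0.83). ARPI read 9.61 and 7.71 against 10.09 and 10.73, with 0.48 on slide 2 and 3.02 on slide 3, where the red channel was also higher by 0.85. Of the 12 genes, 10 differed by at least 1 on both slides, ARPI and AADC1B (on its brightest probe) being the exceptions, and 8 had the larger difference on slide 3.

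A number of cell-wall genes lay below the control. EXPB2, a beta-expansin of the class that loosens walls, read 9.57 and 11.75 in the control and 8.33 and 8.51 after the filtrate. Its difference of -2.23 ± 0.73 was -1.24 on slide 2 and -3.23 on slide 3, and its other probe gave -1.98. The expansins EXP5 (12.17 and 11.53 against 11.51 and 10.52) and EXPA8 (7.91 and 8.28 against 7.62 and 7.27) were lower by 0.84 ± 0.35 and 0.65 ± 0.24. The xyloglucan endotransglucosylases XTH6, XTH7 and XTH9 were lower by 0.94 ± 0.41, 0.72 ± 0.44 and 0.67 ± 0.32, and the endoglucanase Cel1 by 0.57 ± 0.19. XTH7 (-0.66 and -0.78) and XTH9 (-0.81 and -0.53) had similar differences on both slides. Of the 41 genes of the list, which does not hold EXPB2, 13 (31.7%) lay below both control arrays, against 15.5% of all matched genes, and 1 (2.44%) lay above, against 12.7%. The median was -0.27 (-0.20 on slide 2 and -0.37 on slide 3). An unadjusted p under 0.05 in limma was reached by 4 members, all lower. Of all 2232 matched genes, 50 were lower and 46 higher at that threshold. ext1, the extensin gene with the lowest difference (-1.201 ± 0.684), was higher on slide 2 by 0.33 and lower on slide 3 by 2.73.

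**Figure D3:**
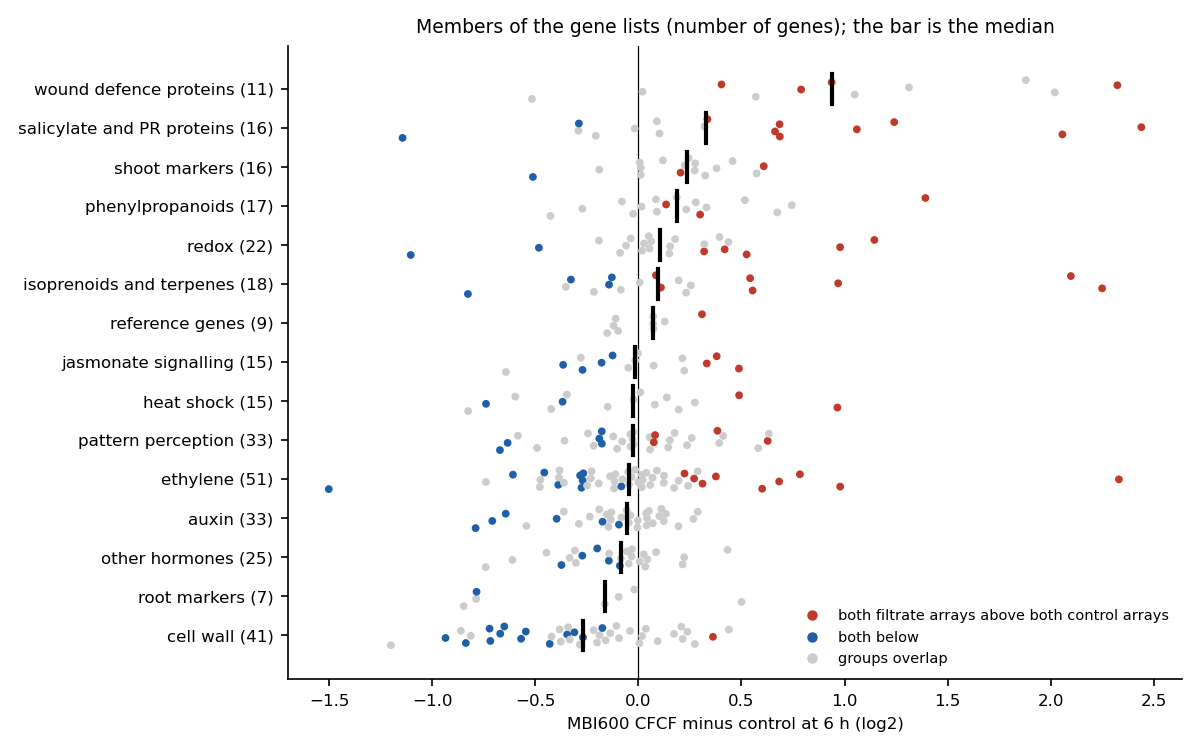
Log2 difference between MBI600 CFCF and control at 6 h (x axis) for each member of the gene lists, with the number of genes in parentheses and the list median as a black bar. Red points had both filtrate arrays above both control arrays, blue points both below, and grey points overlapped. Wound defence proteins have the highest median (0.94) and cell-wall genes the lowest (-0.27), and the bar of the jasmonate list lies at -0.02.

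Hormone lists other than those of defence had medians near 0, and none of their members lay above both control arrays. Of 33 auxin genes, 6 lay below both control arrays (18.2%, against 15.5% of all matched genes) and 0 above (against 12.7%). Their median was -0.06. At an unadjusted p under 0.05 in limma, 3 auxin genes were lower and 0 higher, against 50 lower and 46 higher of all 2232. The auxin efflux carrier gene PIN3 read 8.29 and 8.49 in the control and 7.72 and 7.48 after the filtrate (-0.79 ± 0.24), and the Aux/IAA repressor genes IAA8, IAA4 and IAA9 were lower by 0.71, 0.64 and 0.40. Of 25 genes of abscisic acid, gibberellin, cytokinin and brassinosteroid, 5 lay below and 0 above, with a median of -0.09. The share below was 20%, against 15.5% of all matched genes, and 12.7% of those lay above. None of the 25 had an unadjusted p under 0.05 in limma. LOC101248254, the gibberellin-stimulated gene gast1, had the lowest difference among the separate members at -0.37 ± 0.42.

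7k-LTP, a lipid transfer protein, had the lowest difference after EXPB2. It read 12.36 and 12.16 in the control and 9.52 and 10.60 after the filtrate, and its difference of -2.20 ± 0.95 was the only one among the 12 lowest genes that was larger on slide 2 (-2.84) than on slide 3 (-1.56). LOC101253509, which was picked out after its values were seen because it lay past 1 on both slides, read 9.27 and 9.32 against 7.72 and 7.26, with -1.55 and -2.06. The other genes were read lower chiefly on slide 3. DHN, a dehydrin of water stress, differed by -0.07 on slide 2 and -2.97 on slide 3, SP5G, a flowering repressor of the FT family, by -0.65 and -1.84, and CYP734A8, of the P450 family that inactivates brassinosteroids, by -0.25 and -2.11. NAC2, a NAC transcription factor, had -0.30 and -1.89, and PHYB1, a phytochrome B, had -0.23 and -1.80. That is the brightest of the 4 probes of PHYB1, and the others gave 0.18, -0.16 and -0.08 with groups that overlapped. LIN9, an invertase gene, had the smallest standard error among them and read 8.45 and 9.01 against 7.89 and 7.68 (-0.95 ± 0.20). Of the 12 genes, 2 were lower by at least 1 on both slides.

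A set of defence genes had also been chosen for RT-qPCR. Of the 24 targets of that primer list, 14 could be matched to a probe, through 18 genes, since ERF1, PPO and LAPA each stood for more than 1. With the reference gene ubi3 these made 19 genes. Of these, 7 lay above both control arrays, namely P69B, ACO1, PR1b1, PTI5, LOC101259064, cevi19 and EDS1, and NPR1 and ERF-H1 lay below. These shares were 36.8% and 10.5%, against 12.7% and 15.5% of all matched genes. The paper chose part of the list with these arrays as a guide, favouring raised genes. The remaining genes overlapped. Each side is that of the brightest probe. For cevi19 that probe alone lay above (6.39 and 6.51 against 6.53 and 7.14), and the other probe of NPR1 overlapped. The reference ubi3 read 13.85 and 13.39 against 13.73 and 13.66 (0.07 ± 0.27). The ascorbate peroxidase APX1 read 13.84 and 14.67 against 13.88 and 14.50 (-0.06 ± 0.28), whereas its other probe lay above the control by 0.38. LAPA2 (0.02 ± 0.15), ERF-A2 (0.02 ± 0.16) and LOC606712 (-0.05 ± 0.33) lay near the control as well. The sign of ubi3, APX1 and LAPA2 turned under other processing and with an array left out. That of ERF-A2, LOC606712 and loxD turned only with an array left out. ERF-A2, ERF-H1 and LOC606712 all bear the name ERF1 or a form of it, so the 3 are given side by side. In the paper's RT-qPCR at 6 h of the filtrate, which combined several experiments, loxD, ACO1, PTI5, TD2, PPO and ERF1 were raised. The other matched targets did not differ significantly from the control there, and the estimates for P69B and PR1b1 lay below it. For P69B, PR1b1 and loxD the arrays thus read otherwise than the RT-qPCR, and why was not tested.

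**Figure D4:**
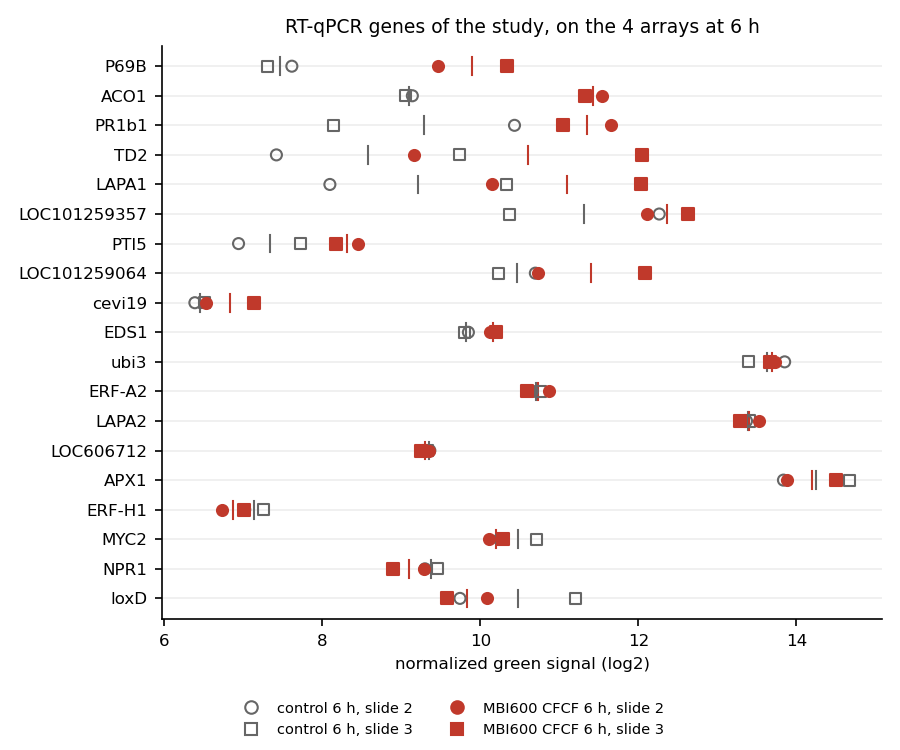
Normalized green signal (log2, x axis) of the 18 genes matched to the RT-qPCR primer list and the reference gene ubi3, from the highest to the lowest difference, on the 2 control arrays (open grey) and the 2 MBI600 CFCF arrays (filled red), with circles for slide 2, squares for slide 3 and a bar at each group mean. P69B, ACO1 and PR1b1 have separate groups, TD2 and LAPA1 are higher on each slide with overlapping groups, and the lower rows lie close together apart from the control array of slide 3 for loxD (11.20).

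Among probes with no gene name, A_96_P163535 and A_96_P179565, which stand for the same sequence, had the highest differences that met the naming rule. The first read 6.73 and 7.76 in the control and 8.78 and 12.23 after the filtrate, a difference of 3.26 ± 0.99 that was 2.05 on slide 2 and 4.47 on slide 3. A_96_P179565 read 6.62 and 6.91 against 8.53 and 11.33 (3.17 ± 0.87). The lowest were A_96_P081054 (-1.88 ± 0.67) and A_96_P182669 (-1.81 ± 0.59), and both lay mostly on slide 3 (-3.37 and -3.08, against -0.39 and -0.54).

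The same control arrays served flg22 at 6 h, so its values are set beside those of the filtrate and no likeness is drawn from them. With flg22 the differences from the control were 4.78 ± 0.86 for mcpi, 4.45 ± 0.60 for NAOD, 6.30 ± 1.02 for LAPA1, 5.74 ± 1.19 for TD2 and 7.31 ± 0.99 for A_96_P163535, against 2.32, 1.54, 1.88, 2.02 and 3.26 with the filtrate, and the direct test of the treatments passed for none of these 5. It gave 2.25 ± 0.30 for HMG2 and 2.04 ± 0.57 for TSI-1, where the filtrate gave 2.098 and 2.028. For TPS32, ACO1 and P69B it gave 0.65 ± 0.25, 0.90 ± 0.54 and 0.76 ± 0.90. The medians were 4.29 for the wound list and 0.94 for the jasmonate list, against 0.94 and -0.02 for the filtrate.

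Tested directly, 45 probes (0.103%) differed between MBI600 CFCF and flg22 at 6 h at an adjusted p under 0.1 with a log2 difference of at least 2, of which 42 were lower after the filtrate (0.0963%) and 3 were higher (0.00688%). The 42 probes stood for 36 sequence names, and 14 of them belonged to 10 named or numbered genes. Slide 3 alone holds both groups, so the value within it is given as well. CEVI57 read 6.86 and 7.97 after the filtrate and 12.90 and 13.53 after flg22, against 7.88 and 7.98 in the control, and was lower by 5.801 ± 0.377 (adjusted p = 0.00407 in limma), with -5.56 on slide 3. Prg1 read 7.04 and 7.92 against 11.44 and 11.46 (-3.97 ± 0.30, adjusted p = 0.00809). The lipoxygenase gene LOX1.1 read 9.74 and 10.48 against 14.57 and 13.14 (-3.74 ± 0.43, adjusted p = 0.0371, -2.66 on slide 3). For these genes the filtrate arrays lay near the control and the flg22 arrays far above both. The others with a symbol were cathDInh (-4.20), BI-GST/GPX, a glutathione transferase (-2.42), cevi16, a peroxidase (-2.31), and lTTS1, a triterpenoid synthase (-2.05). Over the 42 probes the median difference from the control was 0.07 for the filtrate (-0.79 to 2.26) and 2.73 for flg22. These probes were picked for lower values after the filtrate than after flg22, so a gap between the medians follows from the choice. Of the 42, 11 had both filtrate arrays above both control arrays, against 13.9% of all probes. The 3 higher probes had no gene name, and A_96_P138737 read 9.29 and 9.41 after the filtrate, 7.27 and 7.25 after flg22 and 6.97 and 7.23 in the control. TPS32 was higher than after flg22 by 1.59 ± 0.25 (adjusted p = 0.0988), below the log2 difference that a call needs, and with the slide as a term its adjusted p was 0.231. The count fell to 15 with the slide as a term. Of the 10 genes, 3 then kept a call (CEVI57, Prg1 and LOC543883), whereas LOX1.1 (adjusted p = 0.139), cathDInh (0.134), BI-GST/GPX (0.101), cevi16 (0.164), lTTS1 (0.164) and the probe A_96_P138737 (0.191) did not. The count fell to 28 with the replicate number as a block, and a fit of only the compared arrays gave 0. Without MBI600 CFCF replicate 1 it was 7 and without flg22 replicate 1 it was 11.

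At 24 h, on 4 other arrays, the PR proteins named above had positive differences from their own control. None of the differences at 24 h given here passed the adjusted threshold in limma, and the smallest adjusted p among the named genes was 0.555, for PR-P2. PR1b1 was higher by 4.51 ± 0.84 (10.05 and 9.41 in the control and 14.81 and 13.65 after the filtrate), PR-P2 by 2.46 ± 0.35, P69B by 2.42 ± 0.90, TSI-1 by 2.28 ± 0.57 and ACO1 by 1.83 ± 0.54. TPS32 was higher by 0.89 ± 0.25 and HMG2 by 0.30 ± 0.30. mcpi (0.02 ± 0.86) and AADC1B (-0.07 ± 0.58) had groups that overlapped, and MMP1 lay below its control by 0.43 ± 0.36. Of the 12 genes with the highest differences at 6 h, 9 had both filtrate arrays above both control arrays at 24 h and 1 had both below. Of the 12 lowest, 3 lay below at 24 h (EXPB2, CYP734A8 and TPX2) and 4 above. EXPB2 was the lowest of them, at -1.60 ± 0.73. The share of all genes above or below the control at 24 h is not given here. The counts over both sets of 12 genes thus have no background beside them and are not read as persistence. In the interaction test, which sets the effect at 24 h against that at 6 h, 0 of 43603 probes passed (0%) and the smallest adjusted p among the named genes was 0.620, so no gene is shown to differ between 6 and 24 h. The medians of the wound list and the salicylate and PR list at 24 h were 0.25 and 0.29.

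**Figure D5:**
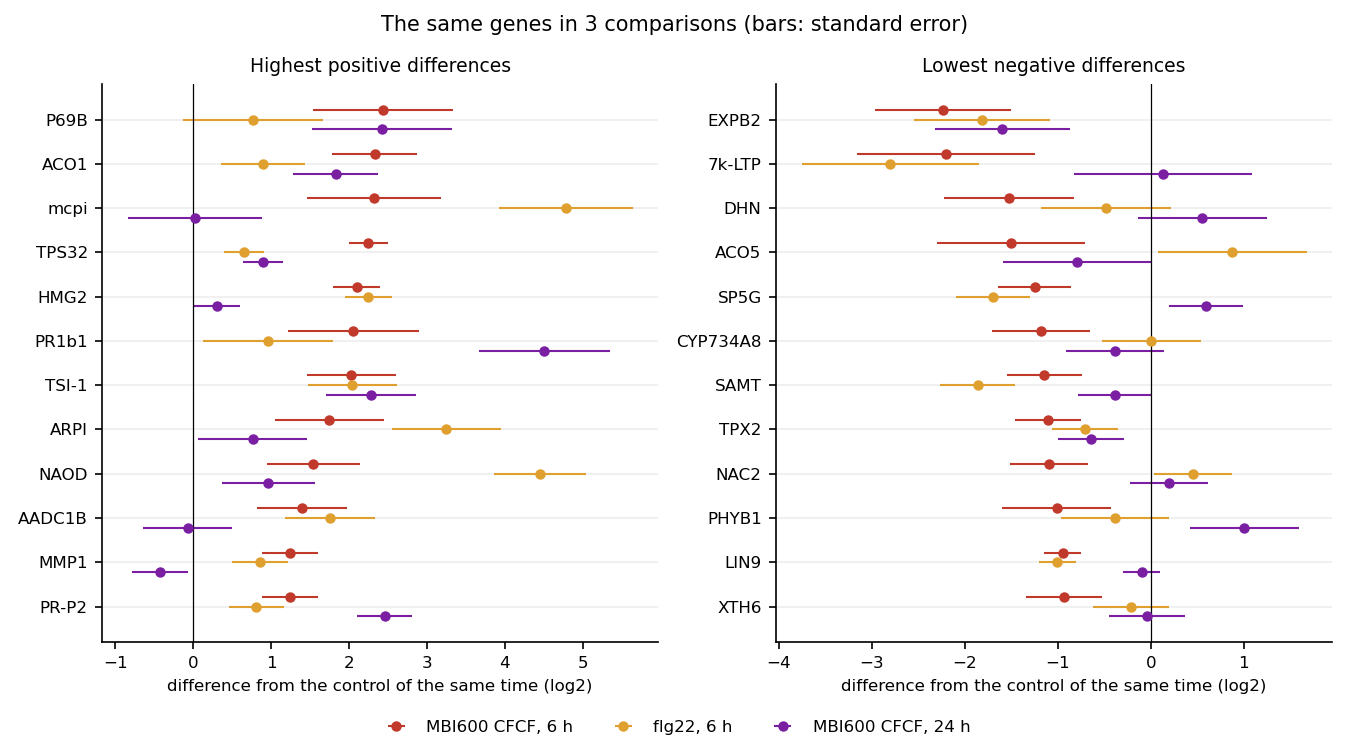
Log2 difference from the control of the same time (x axis) for the 12 genes with the highest positive (left) and the 12 with the lowest negative differences (right) at 6 h of MBI600 CFCF, with the values for MBI600 CFCF at 6 h (red), flg22 at 6 h (yellow) and MBI600 CFCF at 24 h (purple) and bars of 1 standard error. The 6 h comparisons share their control arrays. PR1b1 is highest at 24 h (4.51), mcpi and NAOD are highest with flg22 (4.78 and 4.45), and TPS32 is highest with the filtrate at 6 h (2.25).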

How the data were processed

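RNA was measured on 2-colour Agilent tomato arrays, 12 in all, 2 for each of 6 groups, and the fit used all of them so that the groups share an estimate of the spread. The authors corrected the green (Cy3) median for background with normexp (offset of 50), normalized it between arrays by quantiles and deposited log2 values, and the same steps on the deposited scanner intensity values gave every value again to within 5e-09. No source used here gives what the red channel holds, and it served for checks. Control spots were left out, outlier spots were set to missing (5 probe values), and 43803 spots were averaged to 43603 probes. limma 3.58.1 in R 4.3.3 was used with a mean per group, empirical Bayes moderation and Benjamini-Hochberg adjustment over all probes. The steps were run on simulated data that held no slide effect and the same spread on every slide, unlike these arrays. Quantile normalization gives every array the same distribution, so a shift of most genes cannot be seen.

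Probes were named by accession and symbol from RefSeq's genes for SLM_r2.1, which matched 4884 probes to 2232 of 41476 genes, and the probe with the highest mean signal stood for a gene. The named genes were those of the primer list and, among symbols other than numbered ones, the 12 highest and 12 lowest differences with groups that did not overlap, the same sign on both slides and a signal well above background in the higher group, plus 2 unnamed probes per direction. The genes and lists were chosen with earlier results of these data known. Primer-list genes with no match are not analysed here.

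The methods speak of independent replicates of pooled seedlings, and the p-values measure only the spread between these samples. Replicate numbers of the 4 arrays coincide with slides, and deviations from the group mean correlated between arrays of a slide (r = 0.425 over probes). Slide, replicate number and any shared experiment cannot be told apart here, and no label states a pairing. The alternatives were the scanner software's processed signal, no background subtraction, an offset of 16, scaling to the 75th percentile, outlier spots kept, the green to red ratio, only probes well above background, the replicate block, the slide as a term, only the compared arrays, a trended and robust fit, 1 probe per sequence name, other thresholds, and each array left out in turn.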

Additional observations from a re-analysis of the deposited data

Results flagged for a closer look

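Several of the named genes had both MBI600 CFCF arrays on one side of both control arrays at 6 h and on the other side at 24 h. The change of the effect from 6 to 24 h was 2.08 (log2) for DHN (-1.52 at 6 h and 0.55 at 24 h), 2.02 for PHYB1 (-1.01 and 1.01), 1.84 for SP5G (-1.25 and 0.59), 1.30 for NAC2 (-1.10 and 0.20) and 0.51 for NPR1 (-0.29 and 0.22). It was -1.67 for MMP1 (1.24 and -0.43) and -0.78 for cevi19 (0.39 and -0.40). For PHYB1 this is its brightest probe, and another bright probe gave 0.18 at 6 h with groups that overlapped. At 6 h the groups also overlapped on the other probes of cevi19 (0.05 to 0.25), MMP1 (1.01) and NPR1 (0.10). On the brightest probe of cevi19 the nearest control and filtrate arrays read 6.51 and 6.53. The genes were picked by their direction alone. In limma's interaction test over all probes each had an adjusted p of 0.620, so none of these differences passed. For DHN, PHYB1 and NPR1 the difference at 6 h was read almost wholly on slide 3.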

How the results depend on the processing

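With 2 arrays per group and 0 saturated spots, the number of arrays limits the precision, and a low signal over background shrinks differences under an offset of 50. For MBI600 CFCF against the control, 0 probes were called under every alternative apart from a trended and robust fit, which called 1 (TPS32, adjusted p = 0.0638 in limma), and leaving out each array in turn (0 to 1, the 1 without MBI600 CFCF replicate 1). At an unadjusted p under 0.05 with a difference of at least 1 there were 170. The replicate block gave 0, with 12 or with 4 arrays. At the difference alone (25 probes), the processed signal gave 225 and an offset of 16 gave 40, and leaving out arrays gave 11 (without MBI600 CFCF replicate 2) to 110 (without MBI600 CFCF replicate 1), with 95 and 48 without control replicates 1 and 2. Against flg22 (42 lower and 3 higher), the processed signal gave 93 lower and 14 higher, an offset of 16 gave 91 and 9, only probes well above background 68 and 5, the trended and robust fit 95 and 6, the replicate block 27 and 1, the slide as a term 14 and 1, and only the compared arrays, with or without the replicate block, 0. Leaving out arrays gave 6 to 60 lower and 0 to 4 higher. The interaction called 2 in the trended and robust fit and 0 to 3 with an array left out. Each such fit assumes that a lone array varies like the others.

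Of the values of single genes, 689 kept their direction and side of the threshold and 14 turned. APX1 was at 0.053 in the ratio and at -0.48 to 0.36 with an array left out (0.25 without MBI600 CFCF replicate 1), and ubi3 at -0.019 with the processed signal, -0.31 in the ratio and -0.16 (without control replicate 2) to 0.30 with an array left out. LAPA2 was at -0.11 with the processed signal, -0.039 with scaling to the 75th percentile, -0.14 in the ratio and -0.11 (without MBI600 CFCF replicate 1) to 0.15 with an array left out. With an array left out ERF-A2 was at -0.11 to 0.16 (-0.032 without control replicate 1), loxD at -1.37 to 0.087 (without control replicate 2) and LOC606712 at -0.10 to 0.0018 (without MBI600 CFCF replicate 2). Of the 12 highest and the 12 lowest genes, 5 and 10 moved by over 1.5 times with an array left out. That 0 turned follows from the choice of genes whose groups did not overlap, since their sign cannot change with 1 array left out. mcpi ran from 1.03 (without MBI600 CFCF replicate 2) to 3.61 (without MBI600 CFCF replicate 1), PR1b1 from 0.91 to 3.20 and EXPB2 from -1.14 to -3.32 (without control replicates 2 and 1). TD2 ran from 0.58 to 3.46 (without MBI600 CFCF replicates 2 and 1) and LAPA1 from 0.76 to 2.996 (without control replicates 1 and 2). Of the list medians, 221 moved by less than the spread between replicates and 35 by more. The isoprenoid alternatives were added after seeing the data. The causes were not tested.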
